A study of Danio rerio with 8 samples.

Results

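Zebrafish (Danio rerio) embryos injected with a morpholino against ddx3xb were followed from 2 to 6 hours post fertilization (hpf), by comparing the RPKM table of knockdown embryos at 6 hpf with that at 2 hpf. RPKM is the number of reads of a gene scaled by its length and by the depth of its library. Genes with 5 RPKM or more in at least 1 of the 2 tables were taken, which left 10142 of 33737 Ensembl gene identifiers, and 8010 of them carried a gene symbol. Of these genes, 7062 reached 5 RPKM at both ages, 1118 at 2 hpf alone and 1962 at 6 hpf alone. The lowest gene taken stood at 5.002 RPKM in its higher table and the highest gene left out at 4.999 RPKM, with 316 genes between 5 and 5.5 RPKM and 329 between 4.5 and 5 RPKM.

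A fertilized fish egg starts on RNA that the mother laid down in the oocyte, while its own genome is silent. In the maternal-to-zygotic transition the embryo's genome is switched on in waves and much of the maternal RNA is removed, in part through deadenylation by the CCR4-NOT complex and in part through factors that the new genome encodes. A morpholino is a synthetic oligomer that pairs with an RNA and blocks its translation or splicing. The one used here was directed at ddx3xb, whose product is a DDX3-type DEAD-box helicase, a kind of enzyme known for its part in the translation of mRNA.

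Of the 8 samples of the series, 4 were knockdown embryos, 2 at 2 hpf and 2 at 6 hpf, all titled ddx3xb morpholino. The other 4 were titled control morpholino, 2 at each age, although their genotype label reads wild type, and 1 knockdown sample at 6 hpf is titled ddx3xb but its genotype label reads ddx4xb. Whole embryos were the source and poly(A) RNA the measured fraction. Each table gives a gene a single value for both libraries of its group, so no value below has an SD, a p-value or a replicate check, and each difference is one between 2 tables.

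Markers of tissues not yet formed at these ages, and of the follicle cells around the egg, were near 0 but for 2 genes. Erythroid genes reached 5 RPKM in no case (0 of 9 identifiers), muscle and neuron genes in 1 of 20 (STMN2, 0.00698 RPKM at 2 hpf and 5.10 RPKM at 6 hpf), and follicle cell genes in 1 of 13 (CYP11A1, a steroid-producing enzyme, 36.4 and 29.9 RPKM). In control CYP11A1 stood at 41.1 RPKM at 2 hpf and 69.1 RPKM at 6 hpf, and whether its RNA came from follicle cells was not tested. Low values move in steps of whole reads, and these put the 4 knockdown libraries at a depth, relative to the deepest, of 1 and 0.828 at 2 hpf and at 0.598 and 0.578 at 6 hpf. A value of 5 RPKM stood for about 346 reads at 2 hpf and 223 reads at 6 hpf at the median read worth of 199 genes of low value, and for 110 and 72 reads at its 90th percentile. In bulk embryos fewer cells of a kind and less RNA per cell cannot be told apart, and RPKM gives a share of the library, not an amount of RNA per embryo. A change in the amount of an RNA and a change in its capture by its poly(A) tail cannot be told apart either.

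Changes were taken as log2 of (RPKM at 6 hpf + 1) / (RPKM at 2 hpf + 1), which understates the change of genes with low values. The words rose and fell are used for a change of at least 2-fold. From 2 to 6 hpf 2716 genes rose (26.8%) and 1872 fell (18.5%), so that rises made up 59.2% of the changed genes. Scaling both tables to equal RPKM sums gave 4110 rises and 857 falls, 82.7% rises, and moved the median change of all genes from 0.11 to 0.69. That scaling is set by 5 features above 5000 RPKM at 2 hpf, described further on, and with equal sums counted without them the numbers were 2380 and 2298. The middle of the distribution stayed near no change, with a median of 0.11 and quartiles of -0.74 and 1.09 on the log2 scale.

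**Figure D1:**
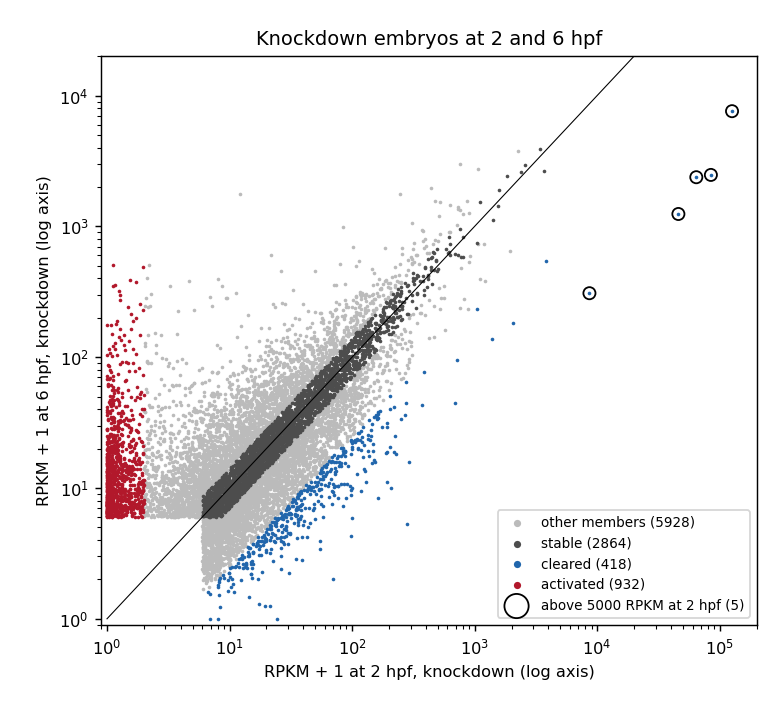
Each point is 1 of the 10142 genes, with RPKM + 1 in knockdown embryos at 2 hpf on the x axis and at 6 hpf on the y axis, both on log axes, coloured by class, with a line at equal values. The activated genes stand along the left edge, up to 506.1 RPKM at 6 hpf. The 5 circled features lie alone at the right, above 5000 RPKM at 2 hpf and below the line of equal values.

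Genes were put in 3 classes by their course. The 418 cleared genes (4.12%) had 5 RPKM or more at 2 hpf and were at least 4-fold lower at 6 hpf. The 932 activated genes (9.19%) had under 1 RPKM at 2 hpf and 5 RPKM or more at 6 hpf. The 2864 stable genes (28.2%) had 5 RPKM or more at both ages and changed by at most 0.5 on the log2 scale. The classes are cuts on the 2 tables and their sizes follow from the cuts.

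Few cleared genes were gone by 6 hpf. Their median level went from 37.4 RPKM at 2 hpf to 6.19 RPKM at 6 hpf, 241 of the 418 still had 5 RPKM or more at 6 hpf, and 22 were under 1 RPKM. The activated genes were mostly low, with a median of 10.79 RPKM at 6 hpf, 704 of them between 5 and 20 RPKM, 189 between 20 and 100 RPKM, and 39 at 100 RPKM or more. Left without the 5 highest features, the cleared class held 8.41% of the RPKM sum at 2 hpf and 1.09% at 6 hpf, the activated class 0.0625% and 4.77%, and the stable class 38.98% and 34.96%. Of the 100 most abundant genes at 2 hpf, the same features set aside, 68 were also among the 100 most abundant at 6 hpf.

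The share of genes that fell did not rise steadily with the starting level. Of 4015 genes at 5 to 20 RPKM at 2 hpf, 19.1% fell, of 3359 genes at 20 to 100 RPKM 27.12% fell, and of 806 genes at 100 RPKM or more 24.2% fell. Their median changes were -0.11, -0.30 and -0.18 on the log2 scale. In control embryos 40.2%, 45.8% and 39.9% of the genes in the same ranges of the control table fell, so the middle range was highest in both arms.

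The most abundant genes with a symbol at 2 hpf were of the mitochondrial genome, with MT-ATP6, a subunit of ATP synthase, at 3695 RPKM at 2 hpf and 2626 RPKM at 6 hpf and MT-CO1, a subunit of cytochrome c oxidase, at 3396 and 3880 RPKM. MT-CO2, MT-CO3 and MT-CYB were also among the 10 highest at both ages. The nuclear genes beside them were hnrnpa0l, an RNA-binding protein (2244 and 3741 RPKM), cldnd, a claudin of tight junctions (2064 and 180.8 RPKM), the A-type cyclins CCNA2 (1416 and 1116 RPKM) and CCNA1 (1215 and 380.1 RPKM), and cth1, a CCCH zinc finger protein (1393 and 137.4 RPKM). By 6 hpf cldnd, cth1 and both cyclins were no longer among the 10 highest with a symbol.

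Their places were taken by genes that rose. The histone H3.3 gene h3f3a went from 753.3 RPKM at 2 hpf to 3020 RPKM at 6 hpf, khdrbs1a, an RNA-binding protein, from 1071 to 2758 RPKM, and the elongation factor eef1a1l1 from 437.2 to 1948 RPKM. The gene marcksl1b, of the MARCKS family of membrane-bound actin regulators, went from 11.1 to 1774 RPKM, a log2 change of 7.19. It was the only one of the 10 highest genes with a symbol at 6 hpf that had stood under 100 RPKM at 2 hpf.

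Among the largest falls were 5 features above 5000 RPKM at 2 hpf, none with a symbol in the tables used here. ENSDARG00000085168 stood at 126060 RPKM at 2 hpf and 7592 RPKM at 6 hpf, ENSDARG00000085067 at 84711 and 2472 RPKM, and ENSDARG00000088951 at 64408 and 2373 RPKM. ENSDARG00000085949 stood at 46005 and 1242 RPKM and ENSDARG00000090280 at 8646 and 307.3 RPKM. Together they held 45.1% of all RPKM in knockdown embryos at 2 hpf and 2.95% at 6 hpf, against 1.34% and 0.776% in the control tables. In control embryos they stood between 148.1 and 2147 RPKM at 2 hpf and between 93.8 and 1514 RPKM at 6 hpf, and 4 of the 5 are among the 6 genes whose change lay furthest below that of the control, of genes at 5 RPKM or more in both arms. RPKM can be high for a short feature with few reads, and their lengths were not known here.

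Identifiers without a symbol also led the falls otherwise. A log2 change of -4 or below was seen in 15 genes, 5 of them with a symbol, and the lowest was ENSDARG00000089968, with 277.0 RPKM at 2 hpf and 4.31 RPKM at 6 hpf (log2 change -5.71; 1.12 and 1.29 RPKM in control). Of the 418 cleared genes, 18 were at least 4-fold above control at 2 hpf, and 1 of these had a symbol. Rises were spread over many more genes, with a log2 change of 4 or more in 323, of which 219 had a symbol.

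The largest falls among genes with a symbol were of genes well expressed at 2 hpf. The membrane protein gene ITM2C went from 96.4 RPKM at 2 hpf to 3.33 RPKM at 6 hpf, a 29.0-fold fall on the scale of RPKM. The gene micall2b, of the MICAL-like family of endosomal adaptors, went from 206.8 to 9.07 RPKM, and TENT4A, a noncanonical poly(A) polymerase, from 191.7 to 10.1 RPKM. DNMT1, the maintenance DNA methyltransferase, was the most abundant of them, at 687.5 RPKM at 2 hpf and 43.7 RPKM at 6 hpf (log2 change -3.94). The others were sh2d5 (160.8 and 7.41 RPKM), SSH2, a cofilin phosphatase (98.5 and 4.86 RPKM), si:dkey-103i16.6 (53.8 and 2.44 RPKM) and dip2cb (53.4 and 2.96 RPKM). All 8 were cleared in control embryos too, with log2 changes between -4.30 and -3.21.

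The largest rises were of genes of the embryo's outer cell layer and of other zygotic genes. The keratins krt18a.1, krt4 and krt8 were at 0.124, 0.129 and 0.730 RPKM at 2 hpf and at 506.1, 351.8 and 374.2 RPKM at 6 hpf. The matrix protein gene stm, known for its part in otolith growth, went from 0.165 to 355.2 RPKM and the RNA polymerase III subunit gene polr3gla from 0.258 to 317.1 RPKM. The small heat shock protein gene HSPB1 went from 0.976 to 491.7 RPKM and the kinase anchor gene akap12b from 1.18 to 501.7 RPKM. Also among the largest rises were si:ch1073-80i24.3 (0.284 and 298.5 RPKM) and asb11, of a family of ubiquitin ligase adaptors (0.283 and 270.3 RPKM). For 8 of these 9 genes the level at 6 hpf was lower than in control embryos, where krt18a.1 stood at 1268 RPKM and krt4 at 1065 RPKM, and asb11 was the exception, at 143.7 RPKM in control.

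The target itself did not pass 2-fold. The RNA of ddx3xb (ENSDARG00000005774) stood at 250.8 RPKM at 2 hpf and 321.8 RPKM at 6 hpf in knockdown embryos, a log2 change of 0.36, against 273.9 and 141.0 RPKM in control embryos (-0.95). Its paralog ddx3xa, with 84.3 and 115.1 RPKM in the knockdown, changed by 0.44, against 102.7 and 41.8 RPKM in control embryos (-1.28). Since a morpholino can act without lowering RNA, the labels cannot be checked from these levels.

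Maternal RNA is described first by lists of genes known for it. The shares of all genes, 26.8% risen and 18.5% fallen, are the background of the counts of each list. Of 29 oocyte and egg transcripts at 5 RPKM or more, 12 fell, 3 rose and 14 stayed within 2-fold in the knockdown, with a median log2 change of -0.78 beside 0.11 over all 10142 genes. In control embryos 20 of the same genes fell and none rose, with a median of -1.997. Those that fell furthest were cldnd (-3.51), cth1 (-3.33), DAZL, an RNA-binding protein of germ cells (150.8 RPKM at 2 hpf and 15.3 RPKM at 6 hpf), slbp2, the oocyte form of the histone mRNA binding protein (154.0 and 14.9 RPKM), and org, an oogenesis-related gene (369.9 and 42.4 RPKM).

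Germ plasm is the maternal RNA and protein store that specifies germ cells, and 10 of its 18 measured genes fell while 1 rose. The median log2 change was -1.15, against -2.15 in control, where 12 of the same genes fell. After DAZL the furthest falls were of the Tudor domain genes tdrd7a (76.9 RPKM at 2 hpf and 13.8 RPKM at 6 hpf) and TDRD6 (43.6 and 9.41 RPKM), of the RNA-binding protein gene DND1 (41.9 and 8.59 RPKM) and of rgs14a (19.3 and 3.88 RPKM). RNA in germ cells and RNA in the rest of the embryo were measured together.

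Maternal patterning factors and activators of the zygotic genome were mixed, with 5 falls, 3 rises and 9 genes within 2-fold among 17. Their median was -0.68 in the knockdown and -0.32 in control, where 7 of the same genes fell and 4 rose. Gene by gene the order of the arms was the other one, with a median difference, knockdown minus control, of 0.12. SMAD2, which carries the Nodal signal, fell from 110.1 RPKM at 2 hpf to 18.8 RPKM at 6 hpf, the T-box factor gene EOMES from 203.7 to 39.4 RPKM, and GRIP2, a scaffold protein tied to the dorsal determinant in zebrafish, from 23.3 to 5.35 RPKM. One member, mxtx1, a homeobox factor of the yolk syncytial layer, was not maternal in these tables and rose from 0.0653 to 43.1 RPKM. The genome activator nanog, named after its values were seen, stood at 1187 and 728.0 RPKM in the knockdown, a log2 change of -0.70 that is within 2-fold, and at 1178 and 207.5 RPKM in control (-2.50).

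Lists of zygotic genes rose almost without exception, but most of their members passed the filter only through their level at 6 hpf. They had to differ between the ages, and the counts below describe levels at 6 hpf and carry no support for a rise. The control median of each list is taken over the same genes. Genes of a list that reached 5 RPKM in control embryos alone are left out of both medians. Over all 33737 identifiers 12.2% rose and 6.25% fell. Over all identifiers of a list, also those under 5 RPKM, the median log2 change was lower, at 0.27 for neurectoderm, 1.11 for the dorsal organizer, 1.40 for the yolk syncytial layer, 3.26 for Nodal and mesendoderm genes, 3.26 for BMP and ventral genes and 4.56 for first-wave genes.

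All 28 first-wave zygotic genes at 5 RPKM or more rose, with a median log2 change of 5.25 (5.68 in control), and 16 of them were under 1 RPKM at 2 hpf. The apolipoprotein gene apoeb went from 1.133 RPKM at 2 hpf to 405.0 RPKM at 6 hpf, the T-box factor gene tbx16 from 0.0891 to 149.2 RPKM, and nnr from 1.08 to 281.4 RPKM. The zinc finger factor gene ZIC2 went from 1.06 to 246.8 RPKM at one of the 2 identifiers that carry this symbol and pass the filter. Of the list's 35 identifiers 7 stayed under 5 RPKM at both ages.

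Signalling genes of the germ layers followed. Nodal ligands induce mesoderm and endoderm at the embryo's margin, and all 14 measured Nodal and mesendoderm genes rose, with a median of 4.18 (4.57 in control). After tbx16 the largest changes were of noto, a notochord factor (0.0883 RPKM at 2 hpf and 100.9 RPKM at 6 hpf), the endoderm factor gene foxa3 (0.0952 and 46.7 RPKM), the chemokine receptor gene CXCR4 (1.27 and 88.9 RPKM at one of its 2 identifiers) and the organizer factor gene GSC (0.148 and 28.8 RPKM). Of the 22 identifiers of the Nodal and mesendoderm list 8 stayed under 5 RPKM in the knockdown. Among these were msgn1, at 4.64 RPKM at 6 hpf (56.4 RPKM in control), and mespab, at 1.37 RPKM (19.4 RPKM in control). An identifier of FSCN1 went the other way, at 0.310 RPKM against 0 in control. The 9 dorsal organizer genes at 5 RPKM or more all rose as well, with a median of 3.09 (4.56 in control). Among them were the secreted BMP antagonist gene chrd, with 0.0736 and 41.2 RPKM, admp, a BMP ligand of the organizer, with 0.162 and 13.2 RPKM, and the Wnt antagonist gene dkk1b, with 0.214 and 9.32 RPKM. Noto and GSC are in both lists.

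BMP ligands pattern the ventral side, and 11 of 12 measured BMP and ventral genes rose, with a median of 4.28 (5.04 in control). The ligand gene bmp7a went from 0.119 RPKM at 2 hpf to 57.8 RPKM at 6 hpf and BMP2 from 0.355 to 36.4 RPKM. The targets ID1 and BAMBI went from 1.505 to 106.3 RPKM and from 2.70 to 149.4 RPKM, and the epidermal keratin gene krt5 from 0.161 to 127.3 RPKM. ID2, an inhibitor of bHLH factors, was the 1 that fell, from 35.1 to 11.7 RPKM. Some ligands, feedback genes and an epidermal gene thus reached 5 RPKM at 6 hpf, while 7 of the list's 19 identifiers did not at either age. Among these were the ligand gene BMP4, at 1.47 RPKM at 6 hpf (12.1 RPKM in control), and msx1b, at 1.79 RPKM (15.7 RPKM in control). A second identifier of BMP2 was slightly higher in the knockdown, at 0.389 against 0.341 RPKM.

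FGF genes had the same form, with 7 rises and 1 fall among 8 and a median of 2.55 (3.61 in control). The ligand gene FGF8 went from 0.0904 RPKM at 2 hpf to 18.9 RPKM at 6 hpf, the FGF-responsive factor gene ETV4 from 4.91 to 62.5 RPKM, and the feedback inhibitor gene DUSP6 from 0.521 to 32.3 RPKM. The inhibitors SPRY2 and SPRY4 stood at 11.5 and 5.004 RPKM at 6 hpf, from 0.690 and 0.305 RPKM. The fall was of etv5a, 155.7 RPKM at 2 hpf and 34.9 RPKM at 6 hpf. Of 15 identifiers of Wnt and posterior genes 3 reached 5 RPKM in the knockdown, dkk1b, the Wnt ligand gene WNT8A (5.81 and 8.43 RPKM) and LEF1, a nuclear factor of Wnt signalling, which fell from 56.1 to 13.2 RPKM. Summed over the 15, the level went from 63.9 to 43.95 RPKM in the knockdown and from 69.3 to 210.6 RPKM in control. At 6 hpf cdx4 stood at 2.80 RPKM in the knockdown and at 69.9 RPKM in control, while WNT8A was lower in control, at 5.97 RPKM.

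Neurectoderm genes rose in 8 of 9 cases, with a median of 3.74 (4.75 in control). The SoxB1 factor genes sox19a and SOX3 went from 0.571 RPKM at 2 hpf to 163.3 RPKM at 6 hpf and from 1.75 to 145.5 RPKM, her5 from 1.78 to 39.5 RPKM and the homeobox gene irx7 from 1.70 to 34.99 RPKM. The 1 within 2-fold was GMNN, the replication inhibitor geminin, which was already high at 2 hpf (305.8 and 298.2 RPKM). Of the 27 identifiers of this list 18 stayed under 5 RPKM.

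The enveloping layer and the yolk syncytial layer had the lists with the widest gaps to the control medians among the 21 with at least 3 members. The former is the epithelium around the blastoderm, and 17 of its 21 measured genes rose and none fell, with a median of 4.05 in the knockdown and 5.59 in control. Besides the keratins, cldne, a claudin, went from 0.0807 RPKM at 2 hpf to 176.4 RPKM at 6 hpf in the knockdown and from 0.0621 to 270.4 RPKM in control. The latter lies on the yolk and feeds the embryo, and 11 of its 12 measured genes rose, with a median of 3.84 in the knockdown and 5.99 in control. The transcription factor genes mxtx2 and HNF4A stood at 48.6 and 21.1 RPKM at 6 hpf in the knockdown, from 0.768 and 0.0173 RPKM, and at 29.5 and 62.8 RPKM in control. The gene afp4 was at 78.1 RPKM at 6 hpf in the knockdown and at 545.6 RPKM in control. Taken gene by gene, the median difference, knockdown minus control, was -1.77 for the yolk syncytial layer and -1.03 for the enveloping layer. Cytosolic ribosomal protein genes lay between them, at -1.08, and dorsal organizer and BMP and ventral genes were close, at -0.95 each. The difference between arms was not tested. Over the 9751 genes measured in both arms the median change in the tables as deposited was 0.45 higher in the knockdown, the other direction. That figure depends on the scaling, since rescaling by the median ratio, described further on, shifted control changes by 0.43 and knockdown changes by -0.08.

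**Figure D2:**
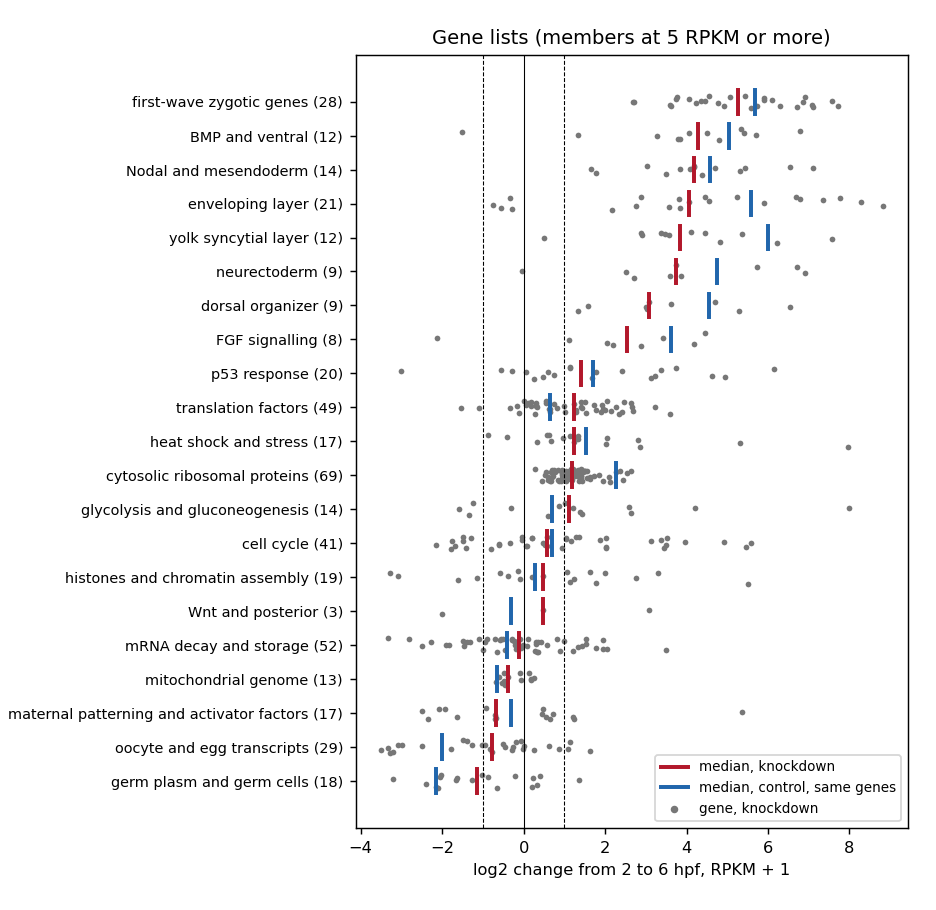
Each grey point is the log2 change from 2 to 6 hpf (RPKM + 1, x axis) of 1 gene in knockdown embryos, by gene list (rows, number of members in brackets, lists with at least 3 members), with the list's median in knockdown and in control as bars and dashed lines at 2-fold. Medians of zygotic lists other than Wnt and posterior lie above 2.5 in the knockdown and above 3.6 in control, and those of germ plasm and oocyte lists lie below 0 in both arms.

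Genes used by most cells were mostly measured at both ages, with 69 of 69 ribosomal protein genes, 42 of 49 translation factor genes and 48 of 52 genes of mRNA decay and storage at 5 RPKM or more in both tables. Ribosomal protein genes of the cytosol all lay above 0, with 43 of 69 risen, none fallen and a median of 1.19, against 67 risen and a median of 2.27 in control. RPL4, of the large subunit, went from 31.2 RPKM at 2 hpf to 174.2 RPKM at 6 hpf in the knockdown and from 31.3 to 279.5 RPKM in control. RPL35A, also of the large subunit, and RPLP1, of the ribosomal stalk, rose by 2.37 and 2.28 on the log2 scale. The summed level of the 70 identifiers went from 7288 to 15185 RPKM in the knockdown and from 5655 to 23131 RPKM in control. The sign of the median held under every scaling tried.

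Translation factor genes rose in 26 of 49 cases and fell in 2, with a median of 1.24 (0.66 in control). EIF4A2, a helicase of the initiation complex, went from 0.895 RPKM at 2 hpf to 21.8 RPKM at 6 hpf, EIF2S2, a subunit of the factor that carries the initiator tRNA, from 16.9 to 166.1 RPKM, and EIF2S1 from 39.0 to 255.4 RPKM. EIF3D, a subunit of the eIF3 complex, went from 7.35 to 51.6 RPKM and EIF4E, the cap-binding protein, from 1.09 to 11.96 RPKM.

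The 13 protein genes of the mitochondrial genome all stayed within 2-fold, with a median of -0.40 and a range from -0.68 (MT-ND5, 775.1 RPKM at 2 hpf and 482.8 RPKM at 6 hpf) to 0.25 (MT-CYB, 1579 and 1881 RPKM). The 3 lowest were all subunits of complex I, with MT-ND6 at 907.3 and 594.3 RPKM and MT-ND2 at 1072 and 735.6 RPKM after MT-ND5. The median became 0.23 with tables scaled to equal sums. In control 2 of the 13 fell.

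Cell cycle genes moved both ways, with 18 rises and 8 falls among 41 and a median of 0.57 (0.69 in control). Only 29 of the 41 had 5 RPKM or more at 2 hpf, and the rest had to be higher at 6 hpf to pass the filter. Over all 47 identifiers of the list the median was 0.48. Among the genes that passed only through 6 hpf were MCM6, MCM3 and cdkn1ca. The replication helicase genes MCM6 and MCM3 went from 0.0645 RPKM at 2 hpf to 49.8 RPKM at 6 hpf and from 0.130 to 49.1 RPKM, and the inhibitor genes cdkn1ca and fbxo5 from 0.398 to 41.5 RPKM and from 6.94 to 122.7 RPKM. Among the falls was CCNB2, a mitotic cyclin, with 1037 and 232.1 RPKM, named after its values were seen. Symbols such as MCM6 can stand for more than 1 gene copy, and only the identifier measured is meant.

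Genes of mRNA decay and storage had 11 rises, 11 falls and 30 genes within 2-fold among 52, near the shares of all genes (26.8% risen and 18.5% fallen), with a median of -0.12 that became 0.47 with equal sums, and -0.41 in control. BTG1, an antiproliferative factor that binds the deadenylase, went from 3.78 RPKM at 2 hpf to 53.2 RPKM at 6 hpf, while its relative BTG4, which is needed for maternal mRNA decay in mouse eggs, went from 141.0 to 24.1 RPKM. The deadenylase subunit gene CNOT7 fell from 26.1 to 2.85 RPKM and PAN3, of the PAN2-PAN3 deadenylase, from 55.4 to 10.7 RPKM. A median near 0 here stands over single changes from -3.33 to 3.50 on the log2 scale.

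Lists of stress genes had medians above 0 in both arms. Of 20 genes listed under the p53 response, 9 of them at 5 RPKM or more at both ages, 12 rose and 1 fell, with a median of 1.42 (1.70 in control). Only 10 of the 20 had 5 RPKM or more at 2 hpf, and the rest had to be higher at 6 hpf to pass the filter. Over all 22 identifiers of the list the median was 1.15. Not every gene listed there, sesn3 among them, is a target of p53 alone. The largest changes were of sesn3 (0.0843 RPKM at 2 hpf and 75.9 RPKM at 6 hpf), PHLDA3 (0.0915 and 32.6 RPKM), GADD45A (0.133 and 27.0 RPKM), PERP (1.46 and 31.8 RPKM) and the cycle inhibitor cdkn1a (0.333 and 12.8 RPKM). Each of these passed the filter only through 6 hpf. Sestrin gene sesn2 was the 1 that fell, from 29.1 to 2.75 RPKM, and stood at 6.49 and 2.62 RPKM in control. Of 17 heat shock and stress genes, 13 of them at 5 RPKM or more at both ages, 10 rose and none fell. Their median was 1.23 (1.52 in control), and it was 1.19 in the knockdown over all 26 identifiers of the list. After HSPB1 came atf4b (0.200 and 46.7 RPKM), SERPINH1, a collagen chaperone (0.0949 and 6.93 RPKM), XBP1, a factor of the unfolded protein response (9.62 and 73.0 RPKM), and hsp70.3 (2.02 and 11.5 RPKM). Of the stress genes named here, all but XBP1 were under 5 RPKM at 2 hpf and had to be higher at 6 hpf to pass. In control hsp70.3 went to 145.9 RPKM and SERPINH1 to 105.9 RPKM, both above the knockdown at 6 hpf.

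Glycolysis and gluconeogenesis genes rose in 8 of 14 cases and fell in 3, with a median of 1.11 (0.70 in control). Only 9 of the 14 had 5 RPKM or more at 2 hpf, and the rest had to be higher at 6 hpf to pass the filter. Over all 34 identifiers of the list the median was 0.32. Among the rises were fbp1b, of gluconeogenesis, with 0.0390 RPKM at 2 hpf and 18.3 RPKM at 6 hpf, ENO3 with 5.81 and 41.7 RPKM and ALDOA with 20.9 and 129.3 RPKM. ALDOC fell from 16.9 to 4.96 RPKM, while in control it stood at 20.2 and 27.5 RPKM. Histone and chromatin assembly genes rose in 9 of 19 cases and fell in 4, with a median of 0.48 (0.29 in control). Of these 19 genes 16 had 5 RPKM or more at 2 hpf. The variant histone genes h2ax and h2ax1 went from 0.836 to 82.0 RPKM and from 25.7 to 260.0 RPKM, and the chaperone gene ASF1B fell from 34.3 to 3.15 RPKM.

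Pairs of related genes, of which one is known from the egg and the other in most pairs from later stages or other tissues, were set side by side, together with ddx3xb and ddx3xa. ZAR1 and ZAR1L are both of a family of oocyte RNA-binding proteins. Of 22 pairs 15 had both genes at 5 RPKM or more in a knockdown table. Among these genes sox19a, WEE1, BTG1, EIF4E, ndr1 and npm2a were under 5 RPKM at 2 hpf. They passed the filter only through 6 hpf and had to be higher then, so their rises carry no support for an exchange. The clearest exchange was in the SoxB1 factors, where sox19b, the maternal member, fell from 273.2 RPKM at 2 hpf to 63.5 RPKM at 6 hpf while sox19a went from 0.571 to 163.3 RPKM. The kinase genes WEE2, of oocytes, and WEE1 went from 284.7 to 82.1 RPKM and from 2.97 to 44.7 RPKM, and BTG4 and BTG1, given above, crossed as sox19b and sox19a did. Another crossing was of CPEB1 (136.5 and 16.5 RPKM) and CPEB4 (42.1 and 22.8 RPKM), where both levels were lower at 6 hpf. In the pairs of sox19b, WEE2 and BTG4 the egg gene stayed at 63.5, 82.1 and 24.1 RPKM at 6 hpf in the knockdown and at 32.0, 28.3 and 11.8 RPKM in control.

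In other pairs the exchange was not complete or not seen. CCNA1 fell from 1215 RPKM at 2 hpf to 380.1 RPKM at 6 hpf (138.2 RPKM in control) while CCNA2 stood at 1416 and 1116 RPKM. The nuclear poly(A) binding protein genes pabpn1l and PABPN1 met at 94.5 and 87.3 RPKM at 6 hpf, from 116.1 and 38.9 RPKM, whereas in control pabpn1l was at 29.5 RPKM. The egg member rose in PABPC1L, of cytoplasmic poly(A) binding proteins (10 and 41.2 RPKM). It also rose in npm2a, a histone chaperone of eggs (3.69 and 13.6 RPKM), which passed the filter only through 6 hpf. The egg member stayed within 2-fold in EIF4E1B, ZAR1, patl2, IGF2BP3 and gdf3. Gdf3, the maternal partner of Nodal, stood at 263.8 and 164.6 RPKM in the knockdown and at 295.2 and 60.3 RPKM in control, while the Nodal ligand gene ndr1 went from 0.315 to 9.69 RPKM in the knockdown.

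**Figure D3:**
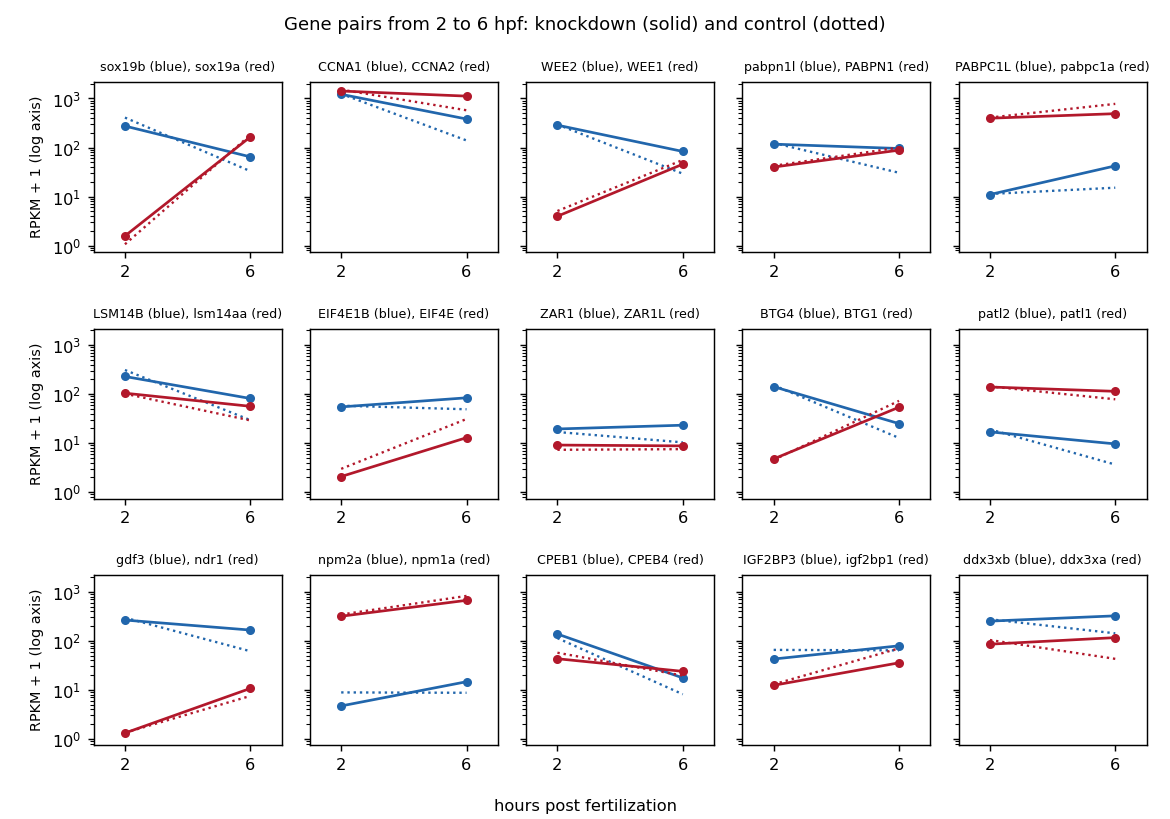
Each panel shows RPKM + 1 (y axis, log) at 2 and 6 hpf (x axis) for 1 of the 15 gene pairs, with the egg gene (or ddx3xb) in blue and its relative in red, knockdown as solid lines with points and control as dotted lines. The solid blue and red lines cross in the panels of sox19b, BTG4 and CPEB1, and in all 15 panels the solid blue line ends above the dotted one at 6 hpf.

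Set beside the control course, the knockdown course had fewer cleared genes and fewer activated ones. In control embryos 10754 genes reached 5 RPKM, of which 2859 rose (26.6%), 3670 fell (34.1%), 1381 were cleared (12.8%), 1229 activated (11.4%) and 2066 stable (19.2%). The median change was -0.32 in control and 0.11 in the knockdown. The gap between the arms in cleared genes depends on the scaling: with tables rescaled by the median ratio over genes at 5 RPKM or more in every table, 796 genes were cleared in control and 473 in the knockdown. That rescaling shifted the log2 changes by 0.43 in control and by -0.08 in the knockdown.

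**Figure D4:**
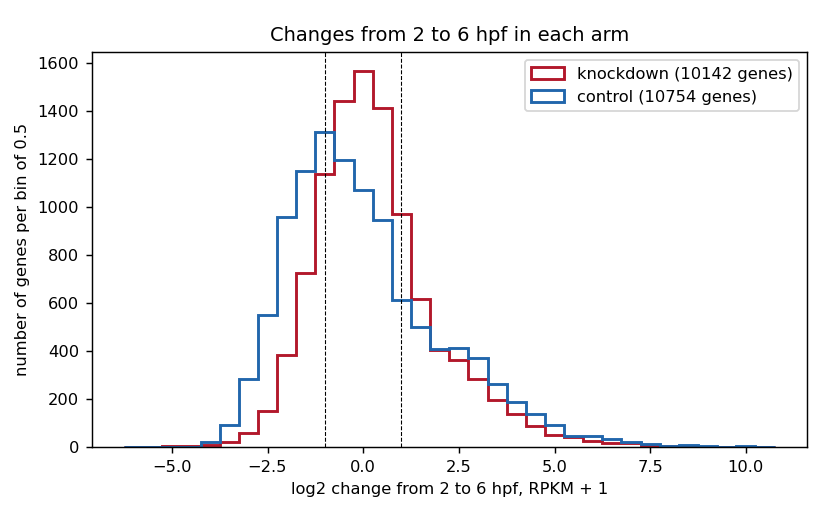
The lines count genes (y axis) by log2 change from 2 to 6 hpf (RPKM + 1, x axis, bins of 0.5) for the 10142 genes of knockdown embryos and the 10754 of control embryos, with dashed lines at 2-fold. The knockdown line has its peak near 0, with quartiles of -0.74 and 1.09, and the control line peaks further left, near the dashed line at 2-fold lower, with quartiles of -1.41 and 1.14.

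The cleared classes shared 354 genes, 84.7% of the cleared genes of the knockdown and 25.6% of those of control. The 1381 genes cleared in control had a median log2 change of -2.44 there and of -1.50 in the knockdown. In the knockdown 354 of them were at least 4-fold lower at 6 hpf, 726 were lower by 2-fold to 4-fold, 300 lay within 2-fold, and 1 rose. These genes were picked by their fall in control, so a smaller fall in the knockdown is partly built in. The gap also depends on the scaling given above. The 418 genes cleared in the knockdown had medians of -2.34 there and of -2.76 in control. The activated classes shared 712 genes, 76.4% and 57.9% of each. Of the 1229 genes activated in control 476 stayed under 5 RPKM at 6 hpf in the knockdown and 41 already had 1 RPKM or more at 2 hpf. Of the 932 genes activated in the knockdown 134 stayed under 5 RPKM at 6 hpf in control and 86 already had 1 RPKM or more at 2 hpf. Each of these sets was picked by the levels of 1 arm. The stable classes shared 1104 genes, 38.5% and 53.4% of each.

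**Figure D5:**
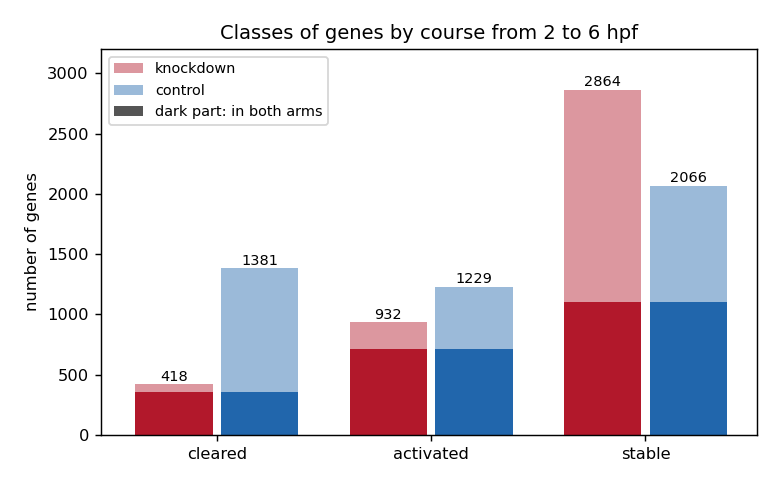
Bars give the number of genes (y axis) cleared, activated and stable from 2 to 6 hpf in knockdown and control embryos, with the dark part of each bar for genes in the same class in both arms. The cleared class held 418 genes in the knockdown and 1381 in control, 354 of them shared.

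Few genes passed 2-fold in opposite directions in the 2 arms, although others, such as ddx3xb, differed in the sign of smaller changes. Of 9751 genes with 5 RPKM or more in a table of each arm, 3 rose in the knockdown and fell in control. They were zgc:171717, fam83fa and MTX1, a mitochondrial import protein, and no gene did the reverse. These counts are of the tables as deposited, where fam83fa and MTX1 rose by little more than 2-fold in the knockdown. The single gene cleared in control that rose in the knockdown was zgc:171717. The change was at least 2-fold higher in the knockdown than in control at 2029 genes and at least 2-fold lower at 465, and with the median ratio these counts turned to 608 and 989. Which arm had the higher change at more genes therefore rests on the scaling, and it was not tested.

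The 6 genes with the largest difference between the arms in each direction held 3 with a symbol above control and 2 below, zgc:171717 among them. HSP90AA1, a cytosolic chaperone, went from 1.34 RPKM at 2 hpf to 14.3 RPKM at 6 hpf in the knockdown and from 0.801 to 230.3 RPKM in control, and EGLN3, a prolyl hydroxylase of the oxygen response, from 0.708 to 14.8 RPKM and from 0.752 to 228.6 RPKM. In the other direction, where the differences were smaller apart from zgc:171717, stood chtopb, a chromatin-associated RNA export factor, with 21.4 and 26.3 RPKM in the knockdown and 31.6 and 4.85 RPKM in control, and si:ch211-145c1.1, with 12.6 and 21.8 RPKM in the knockdown and 27.19 and 7.46 RPKM in control. Heat shock genes and keratins can share reads with near-identical copies and are uncertain one by one.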

How the data were processed

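The authors deposited 4 tables of RPKM (reads scaled by gene length and library depth), in which the 2 libraries of a group share a single column, matched to its group by the age and the knockdown or wild-type tag of its own name. Poly(A) RNA was made into stranded libraries, per the labels' protocols. Reads were handled with HISAT2 2.0.5, SAMtools 1.9, Trimmomatic 0.36 and cutadapt 1.13 on build Zv9, per the submitters' processing notes. What counted the reads, with which strand setting and annotation, is not given in the sources used here, so antisense and overlapping genes are uncertain.

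The tables were joined on the gene identifier, and 1 RPKM was added before log2 ratios (Python 3.11.15, pandas 2.3.3, numpy 2.4.6), a step tested on simulated data. With 1 value per group no test was possible. Symbols matched 21939 of 33737 identifiers, upper case as that table gives it; a symbol without a copy letter can stand for either copy. The genes compared, the 24 lists and the 22 pairs were chosen with earlier results of these data known.

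Genes named were ddx3xb, the 10 largest rises and falls (at most 2 identifiers without a symbol each way), features above 5000 RPKM, up to 5 per list with the largest change, pairs, the 10 most abundant at each age and the 6 furthest above and below control. Some genes that this rule draws are not reported here. nanog, CCNB2, ALDOC, list genes under 5 RPKM in the knockdown, and members that went against their list or between the arms were named after their values were seen. Alternatives were pseudocounts of 0.1 and 5 RPKM, filters of 1 and 10 RPKM or none, median-ratio, quantile and equal-sum scaling, and genes with a symbol alone.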

Additional observations from a re-analysis of the deposited data

Results flagged for a closer look

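The gene zgc:171717 (ENSDARG00000086408) moved in opposite directions in the 2 arms, from 3.41 RPKM at 2 hpf to 8.63 RPKM at 6 hpf in the knockdown and from 14.5 to 0.418 RPKM in control. Its log2 change was 4.58 higher in the knockdown. Smaller opposite courses were seen for fam83fa (ENSDARG00000038012), from 3.18 to 7.88 RPKM in the knockdown and from 6.99 to 2.22 RPKM in control, a difference of 2.40, and for MTX1 (ENSDARG00000036109), from 6.97 to 14.97 RPKM and from 11.7 to 4.37 RPKM, a difference of 2.25. These differences were not tested, since each group has 1 value. The log2 changes of MTX1 were 1.002 in the knockdown and -1.246 in control, and those of fam83fa 1.087 and -1.311. Rescaling by the median ratio, which shifted changes by -0.08 in the knockdown and 0.43 in control, could take both under 2-fold. This was not counted. At 2 hpf zgc:171717 and fam83fa were under 5 RPKM in the knockdown and had to be higher at 6 hpf to pass. In control each named gene passed only through 2 hpf and had to be lower at 6 hpf.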

How the results depend on the processing

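No paired analysis was possible because each group has 1 deposited value, and for the same reason no library could be left out. Without a filter, or with a filter of 1 RPKM, 4132 genes rose, and the genes with a change at least 2-fold lower in the knockdown than in control numbered 1284 and 886. With a pseudocount of 5 RPKM 1194 genes fell and 159 were cleared (521 in control, 133 in both), and 943 had a change at least 2-fold higher in the knockdown. A filter of 10 RPKM left 496 activated genes (713 in control, 376 in both), and genes with a symbol alone 521 (809 and 435). Equal RPKM sums gave 4110 rises, 857 falls, 135 cleared genes (112 in both arms), 331 stable in both, and 5370 changes higher and 241 lower in the knockdown, with a median change of 0.69. The median ratio gave 796 cleared genes in control and 608 changes higher and 989 lower in the knockdown, and quantile scaling 1125 and 759. The median change was -0.038 with quantile scaling and -0.075 with equal sums counted without the 5 highest features. Of 21 list medians, equal sums turned the sign of 2 (mRNA decay, mitochondrial genome), and no other setting turned any. By size, 8 of the 21 medians moved by over 1.5-fold with no filter and with each pseudocount, and 10 with equal sums. Counting error at 5 RPKM is small beside 2-fold at the read worth given, which comes from 199 genes of low value. For shorter genes, where 1 read is worth more, that error is larger. The spread between libraries is unknown. The cause of these shifts was not tested.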

Other observations

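Families taken by the start of their symbols, after their values were seen, add to the account, beside 26.8% risen and 18.5% fallen of all 10142 genes. Of 36 genes whose symbols start with PSMA, PSMB, PSMC or PSMD, 24 rose and 1 fell in the knockdown (median log2 change 1.41, control 0.99). Most of them code for subunits of the proteasome, the cell's main protease, but not all, PSMC3IP being an exception. Of 62 mitochondrial ribosomal protein genes 34 rose and 1 fell (1.22, control 0.70). Of 33 subunit genes of respiratory complex I in the nuclear genome 15 rose and 1 fell (0.81, control 0.66). Most risen genes of both families, such as mrpl20 (0.521 RPKM) and ndufa5 (1.92 RPKM), were under 5 RPKM at 2 hpf. They passed the filter only through 6 hpf and had to be higher then, as did some PSM genes, such as PSMA2 (4.08 RPKM at 2 hpf). The complex I genes of the mitochondrial genome, at 5 RPKM or more at both ages, stayed within 2-fold in the knockdown. In control MT-ND5 and MT-ND1 fell, with log2 changes of -1.13 and -1.01. Of 8 genes of the chaperonin CCT, which folds actin and tubulin, 4 rose and none fell (1.12, control 1.43). Kinesin genes, which code for microtubule motors, had 7 falls and 2 rises among 18 (-0.87, control -0.74). Of 18 nucleoporin genes 4 fell, near the share of all genes, and 1 rose (-0.08, control -0.43).

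Among 10 claudin genes, which code for proteins of tight junctions, 3 fell and 6 rose. In the knockdown cldnd fell from 2064 RPKM at 2 hpf to 180.8 RPKM at 6 hpf, cldng from 712.9 to 94.7 RPKM and CLDN12 from 61.5 to 12.3 RPKM. In the same embryos cldne rose from 0.0807 to 176.4 RPKM, cldn23.1 from 0.0401 to 66.9 RPKM and cldnb from 0.110 to 42.3 RPKM, while cldn7b, with 274.9 and 282.7 RPKM, was the highest claudin at 6 hpf. The claudins that rose and all 5 Hes and Her repressor genes measured (median 3, control 2.85) passed the filter only through 6 hpf, so they had to be higher at that age. No Hox gene reached 5 RPKM. Of 96 zinc finger genes named znf 45 rose and 9 fell (0.91, control 0.44). Most of the 45, such as znf1065 (0.394 RPKM), were under 5 RPKM at 2 hpf. They passed the filter only through 6 hpf and also had to be higher at that age.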
